A study of Rattus norvegicus with 113 samples.

Results

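Gene expression of the rat hippocampus was compared between rats with traumatic brain injury (TBI) and sham-injured rats 3 months after the operation. The comparison took the 4 arrays titled as hippocampus TBI and the 4 titled as hippocampus sham at 3 months, 8 of the 113 arrays of the series, and the 4 naive hippocampus arrays of the same interval were kept in the model, so that 12 arrays were used. All animals were adult male Sprague-Dawley rats, and each array held the RNA of the whole dissected hippocampus of 1 rat. The TBI rats had received a parasagittal fluid percussion injury (FPI), in which a brief pulse of fluid pressure strikes the exposed dura to one side of the midline. The labels call the injury moderate and the study's methods call it severe. The sham rats had the same anesthesia and surgery without the pulse, and the naive rats were neither anesthetized nor handled, so that TBI and sham rats differed by the pulse, and sham and naive rats by anesthesia, surgery and handling together. The question was which genes still differed between injured and sham-injured rats at this chronic interval. The arrays were of the smaller of 2 Agilent rat designs in the series, with 1 dye and 30367 probes, of which 18635 (61.37%) could be given 1 gene name. A whole-tissue RNA cannot tell fewer cells of a type from less RNA per cell.

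After a blow to the brain, microglia, the resident macrophages, and astrocytes, the glia that enclose synapses and vessels, change shape and gene program, and part of that program can outlast the wound. Complement is a cascade of plasma-type proteins that in the brain is made by glia: C1 is the recognition complex, C3 and C4 are cleaved and coat debris and synapses, and Serping1 encodes the inhibitor that blocks C1. Interferon-stimulated genes answer interferon receptors through transcription factors that bind an element in the promoter called the interferon-stimulated response element. The hippocampus holds the dentate gyrus and the CA fields, serves spatial and episodic memory, and lies against the choroid plexus of the lateral ventricle, the secretory epithelium that makes cerebrospinal fluid.

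The scanner software called 43.38% to 60.65% of an array's probes well above background. TBI replicate 1 had the fewest, and in that array no probe under a relative signal of 10.1 was well above background, against floors of 1.34 to 4.65 in the other 11 arrays, so genes of low signal read background there. Signals are given throughout as relative signal, the processed signal with the 75th percentile of each array set to 100, and arrays are listed in the order of replicates 1 to 4. No probe was saturated, and the mean correlation of an array with the others of its group lay between 0.966 and 0.987. All sham and TBI arrays were on 1 slide, sham in one row and TBI in the other, so row and group cannot be told apart, and the naive arrays were on another slide. Of 12 hippocampus markers with a probe, 7 were measured well enough to test, and the dentate gyrus marker Prox1 was not well above background on any sham or TBI array, whereas Zbtb20, which hippocampal neurons require, read 221 to 489. The sums over the 12, 2495 to 3145 in sham and 2593 to 3283 in TBI, overlapped. Of the 13 T cell markers with a probe, 0 could be tested, and of the 9 neutrophil markers 1 could be. Choroid plexus markers separated the sham arrays from each other: the sum over 15 markers was 6778, 34373, 37442 and 6651 in sham and 9770.1, 6203, 6296 and 9120.2 in TBI, and naive read 3295, 20789, 22799 and 5361.

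**Figure D1:**
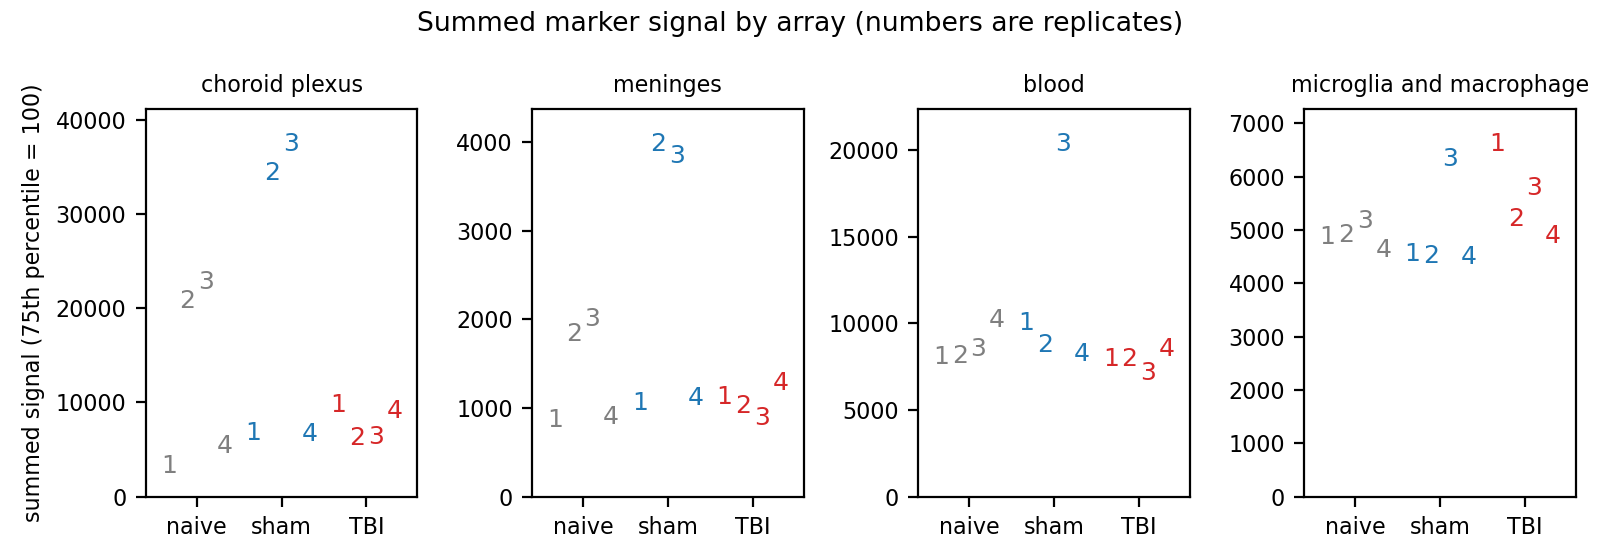
Summed relative signal of choroid plexus, meninges, blood, and microglia and macrophage markers on each array (y axis, 75th percentile of an array = 100) for naive, sham and TBI rats (x axis), with each array drawn as its replicate number. Sham 2 and sham 3 stand far above all TBI arrays in the sums of choroid plexus and meninges markers, the latter through Igf2 and Igfbp2, and sham 3 alone stands high in blood markers.

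Few genes separated TBI from sham. limma, fitted to the 12 arrays, called 1 of 14924 tested probes (0.0067%) at an adjusted p under 0.05, and that probe, which carries no gene name here, was lower in TBI. The lowest adjusted p of a named gene was 0.9999, so that every difference given here for a named gene rests on the study's own thresholds, a fold change of at least 1.4 with an unadjusted p under 0.05. Of the tested probes, 630 (4.22%) had an unadjusted p under 0.05, and 212 passed both thresholds: 150 (1.01%) were higher and 62 (0.415%) lower in TBI. The 4.22% is no larger than the share, 0.05, that this threshold lets pass on average when no probe differs. Read with 1 probe per gene, 86 of 9104 named genes (0.945%) passed higher and 29 (0.319%) passed lower. All 4 TBI arrays lay above all 4 sham arrays for 110 named genes (1.21%) and below them for 127 (1.39%). Separation was thus no more common upward than downward, and for single genes it is given as description only. The split of probes between higher and lower depended on the scaling: with each array set to its median instead, 53 were higher and 234 lower, and the median of all tested probes moved from -0.01 to -0.14 log2 units. Every list median moves with that shift, and counts of positive genes can move with it. Values are therefore best read against the median of all named genes, which was -0.01. Counts of list members that passed are to be read against the 0.945% and 0.319% of all named genes that passed higher and lower. The lists were chosen with earlier results of these data known, and they include genes that the study names for this tissue and interval. A share or median of a list above that of all named genes is therefore no separate result. A gene that "passed" met the fold and unadjusted p thresholds, and each ± is the standard error of the log2 difference. The replicate numbers of the labels tie no sham rat to a TBI rat, so the p-values measure the spread between single rats, and the 4 rats of a group limit the precision.

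The unnamed probe at an adjusted p of 0.0183, A_64_P053331, read 17.5, 22.4, 14.4 and 18.5 in sham and 17.98, 20.3, 12.4 and 33.1 in naive, and 3.85, 3.46, 2.07 and 3.52 in TBI. All sham and naive arrays were well above background and no TBI array was, so the difference is a bound: sham was at least 4.33-fold higher. No value of the other 2 unnamed probes next in rank reached an adjusted p under 0.05 (0.138 and 0.317). Bright unnamed probes that passed lower were A_64_P126595 (-3.19), A_64_P094980 (-3.16), A_64_P084268 (-2.94) and A_64_P151473 (-2.43), each at an adjusted p of 0.9999. A_64_P126595 read 931, 875, 809 and 937 in sham and 20.6, 507, 15.6 and 551 in TBI. In the others too, TBI 1 and TBI 3 lay far below TBI 2 and TBI 4. The call on A_64_P053331 was lost without any 1 of the TBI arrays, of sham 1, 2 and 4 or of naive 1 and 2, and without sham 3 limma called 3 probes. The probe was tested because the sham arrays measured it, and it was not called when all probes were tested without a filter or when every sham and TBI array had to be well above background, a filter it could not pass.

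A small group of complement genes was higher in TBI, led by the inhibitor of C1. Of 28 complement genes with a probe, 18 were tested, and 4 passed higher and 0 lower (Serping1, C3, C4a and C1s), where 0.945% of all named genes passed higher. The median of the 18 was 0.17 on the log2 scale, against -0.01 for all named genes. Serping1 read 55.8, 38.9, 112 and 66.9 in sham and 252, 147, 133 and 129 in TBI, a log2 difference of 1.32 ± 0.33 (fold 2.50, limma unadjusted p = 0.00162). All TBI arrays lay above all sham arrays, TBI 1 highest, and the difference from naive was 1.42. C3, the component on which the complement routes converge, read 134, 128, 105 and 133 in sham and 452.7, 209, 198 and 190.1 in TBI (0.97 ± 0.30, unadjusted p = 0.00679). The groups did not overlap, and TBI 1 stood far above the other 3 TBI arrays.

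C4a, the fourth component, read 81.96, 78.4, 151 and 87.1 in sham and 278, 147, 143 and 125 in TBI (0.78 ± 0.32, unadjusted p = 0.0315). Sham 3 lay among the TBI arrays and TBI 1 far above them. C1s, a protease of the C1 complex, read 11.7, 17.3, 12.4 and 20.6 in sham and 22.5, 20.003, 23.8 and 18.9 in TBI (0.50 ± 0.19, unadjusted p = 0.026), with sham 4 inside the TBI range. C1qa, a chain of the recognition unit that microglia make, was chosen after its values were seen: its arrays overlapped, at 527, 523, 695 and 504 in sham and 867, 542, 790.2 and 454.4 in TBI, and it did not pass (0.20 ± 0.21, unadjusted p = 0.368). C2, the protease that joins C4, overlapped as well, at 31.7, 29.9, 33.003 and 27.5 in sham and 54.2, 36.2, 39.3 and 28.5 in TBI, and its brightest probe did not pass (0.34 ± 0.18, unadjusted p = 0.0805), whereas a dimmer probe of it did (0.64, unadjusted p = 0.00441). With 1 array left out, the call was lost for C4a without TBI 1, sham 1, sham 2 or sham 4 (0.53 to 0.73) and C1s without TBI 1, TBI 3, sham 1 or sham 3 (0.37 to 0.47), and for neither Serping1 nor C3.

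**Figure D2:**
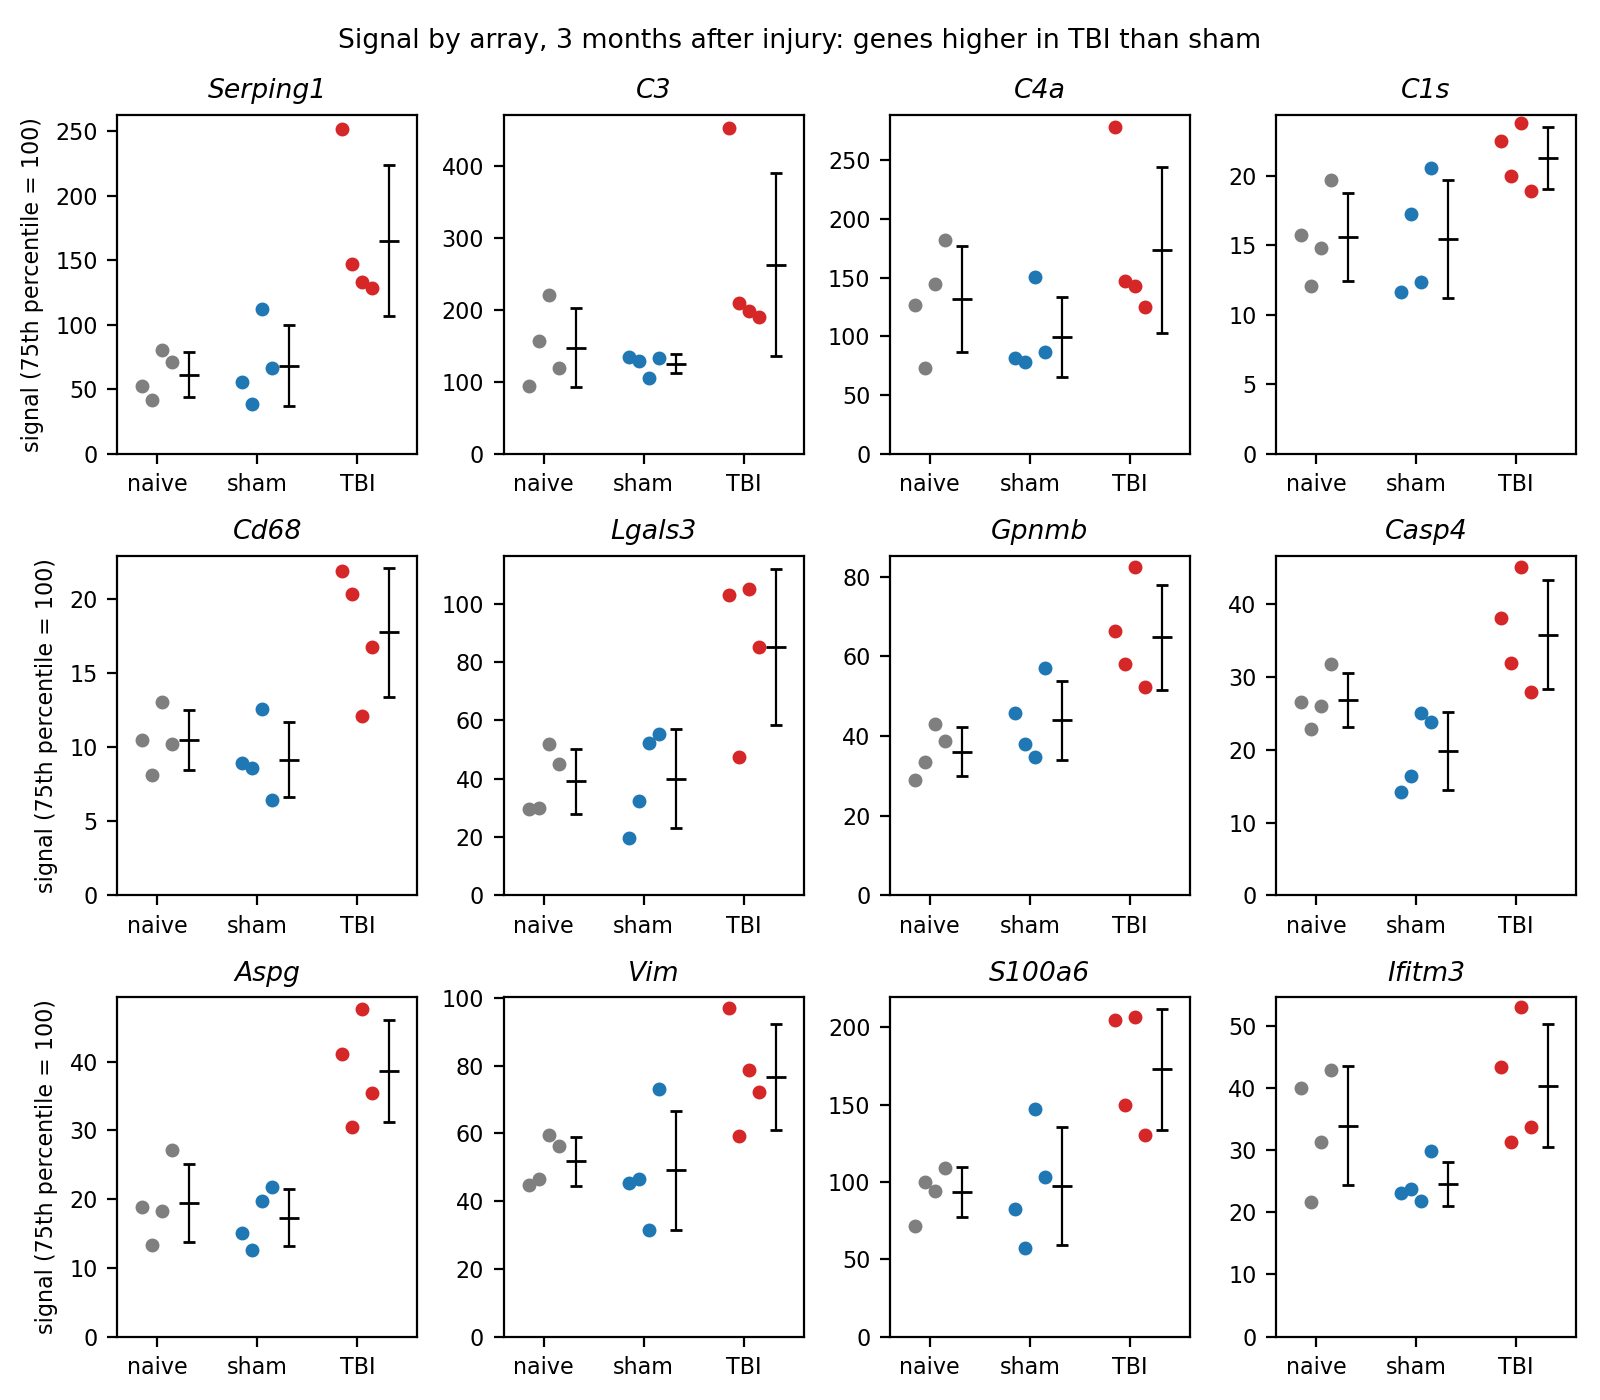
Relative signal (y axis, 75th percentile of an array = 100) of 12 genes that passed higher in TBI, with 1 point per array for 4 naive, 4 sham and 4 TBI rats, and the mean ± SD of each group beside its points. Serping1 sham arrays reach 112 and TBI arrays start at 129, and TBI 1 is the highest array for Serping1, C3 and C4a.

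A few genes that microglia and macrophages raise in injured or degenerating tissue were higher in TBI, and 1 of the general markers of these cells passed. Of 16 tested disease-associated microglia genes 3 passed higher and 0 lower (Lgals3, Cd68 and Gpnmb), with a list median of 0.13. Lgals3, a secreted lectin of phagocytes, read 19.6, 32.4, 52.3 and 55.4 in sham and 103, 47.3, 105 and 85.1 in TBI (1.14 ± 0.35, unadjusted p = 0.0074). TBI 2 lay inside the sham range and the other TBI arrays above it. Cd68, a lysosomal membrane protein of phagocytes, read 8.94, 8.61, 12.6 and 6.46 in sham and 21.9, 20.3, 12.1 and 16.7 in TBI (0.96 ± 0.23, unadjusted p = 0.0013), with TBI 3 just below sham 3. Gpnmb, a membrane glycoprotein of lipid-laden phagocytes, read 45.8, 38.04, 34.7 and 57.1 in sham and 66.4, 58.1, 82.6 and 52.3 in TBI (0.57 ± 0.19, unadjusted p = 0.0113), with sham 4 inside the TBI range.

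All 3 were also above naive, by 1.101, 0.75 and 0.84, a comparison that uses the same TBI arrays. Of the 28 microglia and macrophage markers 21 were tested, 1 passed higher (Cd68) and 0 lower, and 19 had a positive difference, with a median of 0.28. The sum over the 28 was 4555, 4502, 6323 and 4483 in sham and 6611, 5200.1, 5788 and 4893 in TBI, so that sham 3 lay among the TBI arrays and the other sham arrays below all of them. Tyrobp and Trem2, an adaptor and a lipid receptor that act together on microglia, were chosen after their values were seen, overlapped between the groups and did not pass (0.33 ± 0.19 and 0.38 ± 0.26). The call was lost for Gpnmb without TBI 3 or sham 3 (0.44 to 0.46), and for neither Lgals3 nor Cd68 without any 1 array.

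Astrocyte genes split. Of 20 tested astrocyte and reactive astrocyte genes 6 passed higher (Aspg, Gbp2, Hspb1, Cd44, Vim and Cp) and 0 lower, yet 10 of the 20 were positive and the list median was 0.00. Aspg, an asparaginase, read 15.1, 12.6, 19.8 and 21.7 in sham and 41.2, 30.5, 47.6 and 35.5 in TBI (1.17 ± 0.23, fold 2.26, unadjusted p = 0.000277). The lowest TBI array lay clearly above the highest sham array, and TBI exceeded naive by 1.02. Vim, the intermediate filament vimentin of reactive astrocytes and of other cells, was named after its values were seen: it read 45.3, 46.4, 31.3 and 73.1 in sham and 96.9, 59.3, 78.6 and 72.1 in TBI (0.69 ± 0.23, unadjusted p = 0.0113). Its highest sham array, sham 4, lay inside the TBI range. Cd44, the hyaluronan receptor, read 33.6, 27.5, 43.6 and 41.5 in sham and 70.6, 44.4, 77.01 and 47.1 in TBI (0.69 ± 0.24, unadjusted p = 0.0146), without overlap but with only a small gap between sham 3 and TBI 2.

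Hspb1, a small heat shock protein that binds filaments, read 62.6, 80.1, 67.8 and 105 in sham and 155, 83.4, 207 and 96.5 in TBI (0.71 ± 0.28, unadjusted p = 0.025). TBI 1 and TBI 3 were high, and the other 2 TBI arrays lay within the sham range. It was the only gene that passed among 18 tested heat shock genes, whose median was -0.08. Gfap, the defining filament of reactive astrocytes, was chosen after its values were seen. It read 109.7, 216, 150.00 and 466 in sham and 148, 125, 235 and 281 in TBI and did not pass (-0.11 ± 0.42, unadjusted p = 0.799). The arrays overlapped throughout, sham 4 was the highest of the 8, and without sham 4 the difference was 0.29. With 1 array left out, the call was lost for Hspb1 without TBI 1, TBI 3, sham 1 or sham 3 (0.48 to 0.65) and Cp without TBI 1 or sham 1 (0.42 to 0.44).

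The S100 family, small calcium-binding proteins, and the annexin listed with it were higher in part: of 12 tested genes 3 passed higher (S100a6, Anxa1 and S100a3) and 0 lower, with a median of 0.12. S100a6, found in astrocytes and stem cells, read 82.3, 57.4, 147 and 103 in sham and 205, 149, 206 and 130.1 in TBI (0.88 ± 0.26, unadjusted p = 0.00591). Sham 3 lay inside the TBI range, and the other sham arrays lay below it. S100a3 read 23.7, 22.8, 20.7 and 25.2 in sham and 29.9, 27.7, 55.2 and 30.4 in TBI (0.57 ± 0.19, unadjusted p = 0.0113), where TBI 3 stood far above the other TBI arrays. Anxa1, a phospholipid-binding protein of phagocytes and ependyma, read 27.9, 36.4, 50.9 and 42.1 in sham and 67.5, 59.5, 54.3 and 50.5 in TBI (0.58 ± 0.24, unadjusted p = 0.0308), with sham 3 just inside the TBI range. The call was lost for S100a3 without TBI 3 (0.35) and Anxa1 without TBI 1, TBI 2, sham 1 or sham 2 (0.43 to 0.57).

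Among acute phase genes, which encode plasma proteins of inflammation, 4 of 11 tested passed higher and 0 lower (Serping1, C3, Hp and Cp), with a median of 0.23. Cp, the copper oxidase ceruloplasmin, read 26.5, 38.4, 39.5 and 42.6 in sham and 70.6, 48.3, 47.8 and 51.7 in TBI (0.57 ± 0.18, unadjusted p = 0.00808), with no overlap and TBI 1 highest. Hp, the hemoglobin-binding haptoglobin, read 22.9, 28.7, 37.1 and 23.7 in sham, 49.5, 36.6, 34.9 and 52.6 in TBI and 41.6, 33.5, 60.8 and 56.5 in naive (0.63 ± 0.22 for TBI minus sham, unadjusted p = 0.0151). Sham 3 lay among the TBI arrays, the TBI arrays lay within the naive range, and the other 3 sham arrays lay below all naive arrays.

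Interferon-stimulated genes were mostly positive, but few passed. Of 29 tested, 2 passed higher (Gbp2 and Ifitm3) and 0 lower, 24 were positive, a count that can move with the scaling, and the median was 0.18. The list median was -0.03 for TBI minus naive and -0.19 for sham minus naive. In the median deviation of these genes from their means over all arrays, sham 3 (0.33) lay above every TBI array (TBI 1 highest, 0.28). Ifitm3, a membrane protein that blocks virus entry, read 23.1, 23.7, 21.8 and 29.8 in sham and 43.3, 31.3, 53.01 and 33.8 in TBI (0.69 ± 0.23, unadjusted p = 0.00969). All TBI arrays lay above all sham arrays. Gbp2, an interferon-induced GTPase, read 28.7, 32.5, 69.02 and 50.5 in sham and 92.1, 65.4, 76.3 and 54.1 in TBI (0.73 ± 0.29, unadjusted p = 0.0285), with sham 3 among the TBI arrays, and its call was lost without TBI 1, TBI 3, sham 1 or sham 2 (0.54 to 0.70). Oasl2, an antiviral oligoadenylate synthetase-like gene outside the list that was named after its values were seen, read 17.6, 19.7, 21.3 and 21.5 in sham and 37.9, 34.2, 30.4 and 21.2 in TBI (0.60 ± 0.20, unadjusted p = 0.0115). TBI 4 lay with the sham arrays and the other 3 TBI arrays above them.

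Isg15, a ubiquitin-like protein strongly induced by interferon, read 36.8, 33.9, 58.1 and 39.02 in sham and 78.3, 71.2, 64.2 and 46.7 in TBI but 86.5, 34.002, 52.6 and 117 in naive, and it did not pass (0.64 ± 0.33, unadjusted p = 0.0794). Ifit3, which binds foreign RNA, was too dim to test: it read 2.10, 3.55, 3.75 and 3.30 in sham and 7.95, 5.66, 6.47 and 5.54 in TBI, with 2 sham and 3 TBI arrays well above background. The promoters of Ifitm3, Gbp2 and Oasl2 are shown because each holds the letters that the interferon-activated factors recognize, which is a match of letters and not a measured site. Sequences are from RefSeq (build GRCr8), 250 bases up to the transcript start, 5′ to 3′ on the gene's strand. Capitals mark the core of the interferon-stimulated response element, GAAA followed by any 2 bases and a second GAAA, or its reverse complement, TTTC with the same spacing to a second TTTC. They lie at chr1:205541759-205542008 (minus strand) for Ifitm3, chr2:234005477-234005726 (plus strand) for Gbp2 and chr12:47383186-47383435 (minus strand) for Oasl2.
Ifitm3: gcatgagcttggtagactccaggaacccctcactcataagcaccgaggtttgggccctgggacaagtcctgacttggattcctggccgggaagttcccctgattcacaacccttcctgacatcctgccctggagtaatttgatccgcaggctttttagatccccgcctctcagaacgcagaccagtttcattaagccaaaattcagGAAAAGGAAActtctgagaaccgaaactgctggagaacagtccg
Gbp2: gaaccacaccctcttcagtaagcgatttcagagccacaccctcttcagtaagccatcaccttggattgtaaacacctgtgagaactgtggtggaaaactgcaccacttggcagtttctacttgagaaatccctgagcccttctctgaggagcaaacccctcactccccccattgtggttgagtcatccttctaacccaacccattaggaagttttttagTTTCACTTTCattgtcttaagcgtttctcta
Oasl2: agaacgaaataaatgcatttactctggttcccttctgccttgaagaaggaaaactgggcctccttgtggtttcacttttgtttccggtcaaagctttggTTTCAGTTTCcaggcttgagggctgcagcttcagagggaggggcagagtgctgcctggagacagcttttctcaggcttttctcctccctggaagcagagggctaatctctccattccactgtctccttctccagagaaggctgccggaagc

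The element, searched on both strands of the 300 bases around the start, was found in 1131 of 27457 promoters of the table (4.12%), in 22 of the 32 interferon genes with a promoter (68.8%) and in 9 of 15 MHC class I genes (60%). It was found in 4 of the 70 genes with a promoter that passed higher (5.71%; Gbp2, Ifitm3, Il18bp and Oasl2) and in 1 of 19 that passed lower (5.26%). No complement promoter of 19 held it. The 15 tested interferon genes with the element had a median difference of 0.17 and the 6 without it also 0.17.

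Antigen presentation genes gave a mixed picture. Of 12 tested MHC class I genes 0 passed in either direction, with a median of 0.05. B2m, the light chain shared by class I molecules, read 492, 506, 619 and 484 in sham and 451, 468, 448 and 458 in TBI, where all TBI arrays lay slightly below all sham arrays (-0.20 ± 0.12, unadjusted p = 0.136). The heavy chains RT1-A1 and RT1-A2 overlapped between the groups (0.15 ± 0.14 and 0.62 ± 0.49). Of 6 tested MHC class II genes 1 passed higher, the beta chain RT1-Db1, which read 6.42, 15.8, 9.996 and 11.3 in sham and 21.1, 22.9, 18.6 and 12.3 in TBI (0.82 ± 0.35, unadjusted p = 0.0365). Sham 2 lay inside the TBI range, and the call was lost without TBI 1, TBI 2, TBI 3, sham 1, sham 3 or sham 4 (0.59 to 0.86). RT1-Db1 was well above background on 3 sham arrays and was tested through the TBI arrays alone. Cd74, the invariant chain that escorts class II molecules, named after its values were seen, varied widely: it read 27.6, 90.7, 102 and 45.5 in sham, 239, 98.96, 114 and 104 in TBI and 25.3, 51.8, 225 and 54.7 in naive and did not pass (1.15 ± 0.61, unadjusted p = 0.0838). The class II list had a median of 0.46, and it moved to 0.22 relative to all named genes when every array of both groups had to be well above background.

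Most chemokine transcripts were at or near background in both groups. Of 27 with a probe 10 were tested, 0 passed, and the median was 0.11. Ccl2, which draws monocytes, read 1.91, 1.14, 2.34 and 1.56 in sham and 3.70, 3.56, 9.81 and 2.34 in TBI. No sham array and 2 TBI arrays were well above background, and no fold is given. Ccl3 and Ccl4, which draw leukocytes, were not well above background on any sham or TBI array.

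Other genes that the study names for this tissue and interval were too dim to test. Spp1, the phagocyte protein osteopontin, read 1.98, 3.45, 1.80 and 2.85 in sham and 13.9, 7.28, 4.999 and 2.77 in TBI, with 1 sham and 3 TBI arrays well above background. Bcl3, a nuclear partner of NF-kB, read 2.68, 3.36, 5.86 and 3.23 in sham and 8.40, 6.72, 16.1 and 5.87 in TBI. Ager, the receptor for advanced glycation end products, read 6.56, 7.76, 5.99 and 7.70 in sham, 13.5, 10.4, 8.32 and 16.7 in TBI and 11.7, 7.99, 16.1 and 10.9 in naive. Bcl3 was well above background on 2 sham and 3 TBI arrays, and Ager on 3 of each. In Spp1 the groups overlapped, and the order of the arrays is not read for Bcl3 and Ager, since part of the values were not measured above background.

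Genes of Toll-like receptor, NF-kB and survival signaling had one of the higher list medians, 0.36 against -0.01 for all named genes. Of 16 tested, 15 were positive, a count that can move with the scaling. Of the 16, 4 passed higher (Casp4, Nfkbia, Nfkb1 and Tgfb1) and 0 lower. Casp4, an inflammatory caspase that senses bacterial lipopolysaccharide in the cytosol, read 14.2, 16.4, 24.99 and 23.8 in sham, 38.2, 31.99, 45.1 and 28.01 in TBI and 26.6, 22.8, 25.98 and 31.8 in naive (0.87 ± 0.20, unadjusted p = 0.00115). All TBI arrays lay above all sham arrays, and the naive arrays overlapped both groups. Nfkbia, the inhibitor that holds NF-kB in the cytoplasm and is itself its target, read 199, 222, 179.9 and 311 in sham and 449, 257, 317 and 291 in TBI (0.53 ± 0.19, unadjusted p = 0.0182), with sham 4 inside the TBI range.

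Nfkb1, a subunit of that factor, had 1 sham array far under the other 3, sham 3: it read 26.5, 28.5, 12.8 and 27.2 in sham and 33.5, 32.2, 32.3 and 31.4 in TBI (0.51 ± 0.21, unadjusted p = 0.0337). Tgfb1, a cytokine that restrains inflammation and drives scarring, read 8.36, 8.24, 9.20 and 8.71 in sham and 11.7, 9.01, 17.5 and 12.2 in TBI (0.51 ± 0.16, unadjusted p = 0.00878), where TBI 2 lay within the sham range and TBI 3 was the highest. Tgfb1 was well above background on 3 TBI arrays. With 1 array left out, the call was lost for Nfkbia without TBI 1, sham 1 or sham 3 (0.37 to 0.47), Nfkb1 without TBI 1, TBI 2, TBI 3, TBI 4 or sham 3 (0.24 to 0.53) and Tgfb1 without TBI 3 (0.33), and Casp4 kept its call without any 1 array. The list median relative to all named genes was 0.37, and 0.16 after a normexp background correction.

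**Figure D3:**
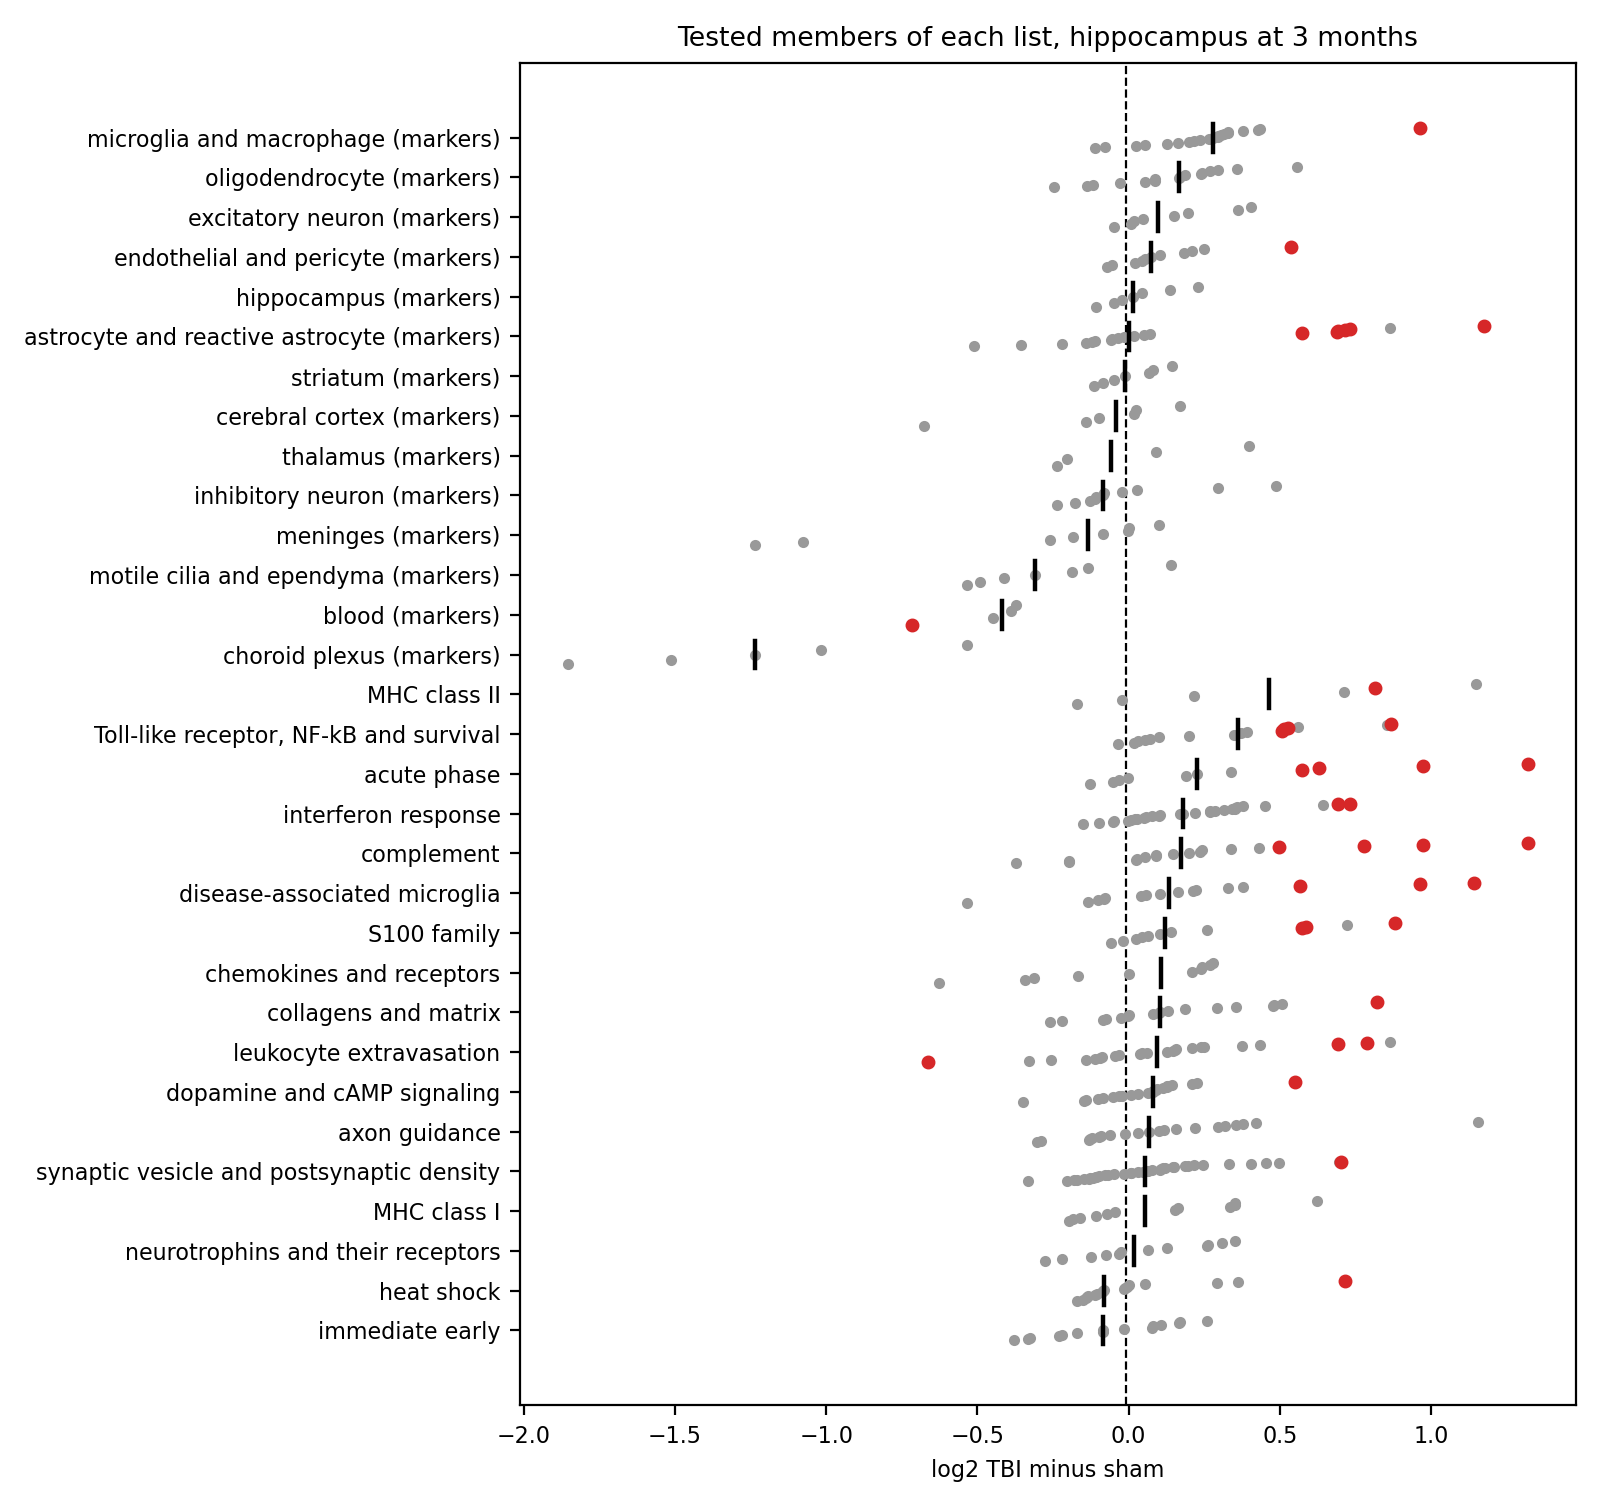
Log2 TBI minus sham (x axis) of each tested gene in the gene and marker lists with at least 4 tested genes (y axis), with genes past the fold and unadjusted p thresholds in red, the list median as a black bar and the median of all named genes as a dashed line. The MHC class II (0.46), Toll-like receptor (0.36), and microglia and macrophage (0.28) lists have the medians farthest to the right of the dashed line, and the choroid plexus (-1.24), blood (-0.42) and cilia (-0.31) markers those farthest to its left.

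Neuronal and matrix lists held few genes that passed. Of 38 tested synaptic vesicle and postsynaptic density genes 1 passed higher, Homer2, a scaffold that ties glutamate receptors to calcium stores. It read 64.9, 55.2, 58.1 and 33.6 in sham, 79.98, 84.9, 76.1 and 94.6 in TBI and 90.98, 125, 42.3 and 66.6 in naive (0.70 ± 0.29, unadjusted p = 0.0343), without overlap of TBI and sham, and its call was lost without TBI 1, TBI 2, TBI 4 or sham 4 (0.50 to 0.72). Of 23 dopamine and cAMP signaling genes 1 passed higher, the vesicular monoamine transporter Slc18a1, at 33.99, 30.4, 38.8 and 31.9 in sham, 35.6, 52.5, 64.4 and 48.7 in TBI and 52.5, 46.4, 78.8 and 64.6 in naive (0.55 ± 0.20, unadjusted p = 0.016). TBI 1 lay within the sham range, the naive arrays lay above all sham arrays, and the call was lost without TBI 3 (0.42).

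Of 18 collagen and matrix genes 1 passed higher, Col5a1, a chain of fibrillar collagen V, and of 11 endothelial and pericyte genes 1 did, the VEGF receptor Flt1 (0.54 ± 0.21), whose call was lost without TBI 3, sham 1 or sham 3 (0.38 to 0.45). Of 15 immediate early, 12 neurotrophin and receptor, and 21 axon guidance genes 0 passed, with medians of -0.08, 0.02 and 0.07. Of the leukocyte extravasation genes, 24 were tested, Arhgap4 and Cd44 passed higher and Mmp2 lower. Markers of oligodendrocytes (16 tested), excitatory neurons (8) and inhibitory neurons (11) included 0 genes past the thresholds, with medians of 0.17, 0.10 and -0.08.

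The largest rises without overlap included genes outside these lists. Atp7a, a copper-exporting pump, read 4.45, 0.541, 0.906 and 7.09 in sham and 35.7, 10.9, 30.6 and 20.2 in TBI. It was well above background on all TBI arrays but on 1 sham array, and sham 1, 2 and 3 were under the floors of their arrays, so it was tested through the TBI arrays alone and no size of its difference is given. Its naive arrays scattered over the range of both groups (0.913, 26.7, 6.67 and 0.840). Repin1, a zinc finger protein, read 2.12, 10.5, 3.83 and 6.85 in sham, 21.9, 19.1, 19.1 and 18.3 in TBI and 19.96, 17.8, 8.95 and 17.9 in naive (1.99 ± 0.41, unadjusted p = 0.000431). The TBI arrays were tight and close to most naive arrays, and the sham arrays were low and scattered, with sham 1 under that array's floor. Repin1 was well above background on 3 sham arrays, so it too was tested through the TBI arrays alone. The size of its difference rests in part on a sham value not measured above background.

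Ssc5d, a scavenger receptor cysteine-rich protein, read 3.26, 5.97, 8.35 and 6.07 in sham, where sham 1 was under that array's floor, and 17.1, 9.05, 20.99 and 15.1 in TBI (1.41 ± 0.30, unadjusted p = 0.000557). Like Repin1, it was well above background on 3 sham arrays and was tested through the TBI arrays alone. Col5a1 read 12.1, 9.87, 8.18 and 7.89 in sham and 13.2, 17.8, 14.2 and 22.6 in TBI (0.82 ± 0.22, unadjusted p = 0.00302), with 3 TBI arrays well above background. Arhgap4, a GTPase-activating protein of blood cells and growing neurites, read 12.97, 13.1, 9.93 and 12.2 in sham and 21.1, 17.9, 15.99 and 30.1 in TBI (0.79 ± 0.21, unadjusted p = 0.00261). Il18bp, the decoy that binds interleukin 18, differed by 0.75 ± 0.22 (unadjusted p = 0.00537). Atp7a, Repin1, Ssc5d, Col5a1, Arhgap4 and Il18bp were picked among genes with every TBI array above every sham array. That order is therefore no separate result, and for Atp7a it includes sham values under the floors of their arrays. None of these genes lost its call without any 1 array. For Atp7a, Repin1 and Ssc5d, every fit that kept sham 1 held a sham value not measured above background, so those kept calls are description only.

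The genes lower in TBI were fewer, and some, such as Scara5 and Mmp2, were highest in sham 2 and sham 3, the sham arrays highest in choroid plexus markers. Scara5, a scavenger receptor that takes up ferritin, read 7.98, 20.9, 12.97 and 9.60 in sham and 4.90, 6.95, 5.17 and 5.38 in TBI (-1.11 ± 0.33, unadjusted p = 0.00563). Sham 2 and sham 3 were the highest, TBI 1 was under that array's floor, the other 3 TBI arrays lay below all sham arrays, and without sham 2 and sham 3 the difference was -0.66 and did not pass. Dusp19, a phosphatase of stress-kinase signaling, read 23.7, 37.1, 26.98 and 31.996 in sham, 14.5, 11.96, 11.1 and 20.3 in TBI and 12.97, 17.998, 11.6 and 20.7 in naive (-1.07 ± 0.23, unadjusted p = 0.000627). All sham arrays lay above all TBI and naive arrays, and without sham 2 and sham 3 the difference was -0.97 and passed. Dusp19 was well above background on 3 TBI arrays, so it was tested through the sham arrays alone.

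Mrpl18, a protein of the mitochondrial ribosome, read 248, 236, 332 and 229 in sham, 109.9, 224, 193 and 125 in TBI and 119.6, 126, 138 and 136 in naive (-0.72 ± 0.21, unadjusted p = 0.00505). The sham arrays were the highest of all 12, the TBI arrays ranged from under the naive arrays to just under the sham arrays, and without sham 2 and sham 3 the difference was -0.61. Syt10, a calcium sensor of vesicle release, read 11.9, 12.7, 11.7 and 12.7 in sham and 4.997, 9.58, 8.99 and 5.20 in TBI (-0.83 ± 0.28, unadjusted p = 0.0121). The sham arrays were nearly level and TBI 1, which was under that array's floor, and TBI 4 were low.

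Zfp112, a zinc finger protein, and Ttpa, the transfer protein of vitamin E, differed by -0.78 ± 0.22 and -0.64 ± 0.21 without overlap, and TBI 1 was under that array's floor for both. Lack of overlap was a condition for naming the falls from Scara5 to Serhl2, so it is no separate result. Scara5, Syt10, Zfp112 and Ttpa, well above background on 3 TBI arrays, were like Dusp19 tested through the sham arrays alone. Dhx32, a helicase-like protein, Aifm3, of the apoptosis-inducing factor family, and Serhl2, a serine hydrolase-like protein, differed by -0.53 ± 0.19, -0.49 ± 0.17 and -0.49 ± 0.14, and in Dhx32 TBI 4 alone lay far below the rest. The call was lost for Ttpa without TBI 1 (-0.45), Dhx32 without TBI 4 or sham 3 (-0.41 to -0.30), Aifm3 without TBI 1, TBI 3, sham 1 or sham 2 (-0.48 to -0.37) and Serhl2 without TBI 1, sham 2 or sham 4 (-0.46 to -0.36).

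**Figure D4:**
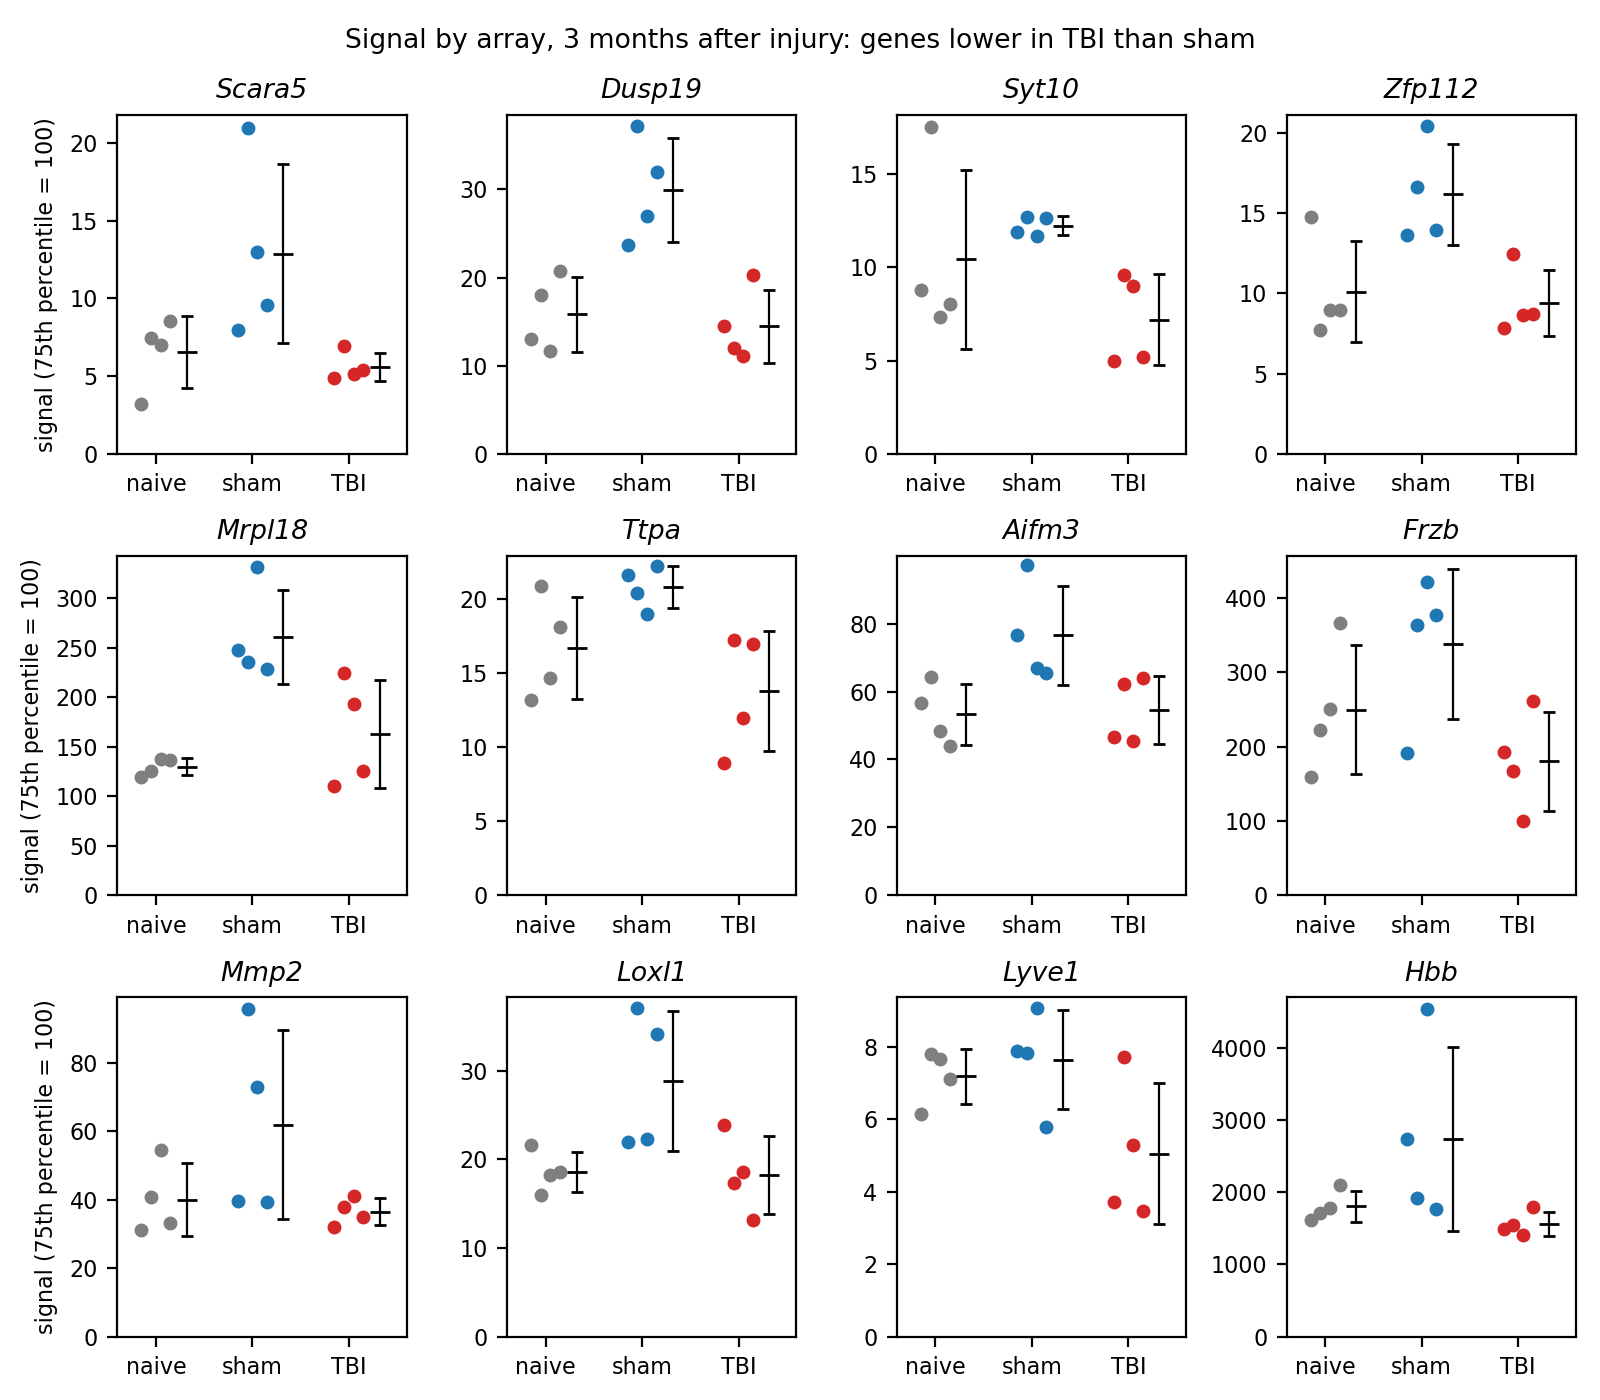
Relative signal (y axis, 75th percentile of an array = 100) of 12 genes that passed lower in TBI, with 1 point per array for 4 naive, 4 sham and 4 TBI rats and the mean ± SD of each group beside its points. For Dusp19 and Mrpl18 the sham arrays lie above both other groups, and for Mmp2 only sham 2 and sham 3 do.

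Frzb, Loxl1 and Lyve1 passed lower and were named after their values were seen. Frzb, a secreted Wnt antagonist, read 192, 364, 422 and 378 in sham and 193, 167, 100.4 and 262 in TBI (-0.93 ± 0.33, unadjusted p = 0.0171). Loxl1, which cross-links elastin, differed by -0.65 ± 0.21, and Lyve1, a hyaluronan receptor of lymphatic vessels and border macrophages, by -0.65 ± 0.23, and in all 3 genes the groups overlapped. Lyve1 was well above background on 3 TBI arrays, with TBI 1 under that array's floor, so it was tested through the sham arrays alone. The size of its difference rests in part on a TBI value not measured above background. With 1 array left out, the call was lost for Frzb without TBI 3 or sham 3 (-0.80 to -0.67) and Lyve1 without TBI 1 or TBI 4 (-0.53 to -0.50).

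Mmp2, a gelatinase that meningeal fibroblasts express, read 39.7, 95.7, 72.9 and 39.2 in sham and 31.9, 37.9, 41.1 and 34.8 in TBI (-0.66 ± 0.28, unadjusted p = 0.0355). Sham 2 and sham 3 were high, sham 1 and sham 4 lay among the TBI arrays, and without sham 2 and sham 3 the difference was -0.12. The call was also lost without TBI 1, TBI 2, TBI 4, sham 2 or sham 3 (-0.68 to -0.42). Hbb, the beta chain of hemoglobin, read 2734, 1914, 4544 and 1771 in sham and 1486, 1545, 1406 and 1789.7 in TBI (-0.72 ± 0.24, unadjusted p = 0.0128), where sham 3 was far above the rest. Its call was lost without sham 3 (-0.44), and a second probe of Hbb gave 0.24.

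The marker lists of the tissues beside the hippocampus differed in which arrays were high. Choroid plexus markers had a median of -1.24 over 5 tested genes, of which 0 passed, and that median became 0.05 relative to all named genes without sham 2 and sham 3. Ttr, transthyretin, the main secreted protein of the choroid plexus, read 5846, 29934, 33897 and 5497 in sham, 8494, 5267, 5544 and 7835 in TBI and 2440.01, 19114, 20900.1 and 4288 in naive (-1.02 ± 0.77, unadjusted p = 0.21). Sham 2 and sham 3 and naive 2 and naive 3 were several-fold above the other arrays, and the difference reversed to 0.23 without sham 2 and sham 3. The folate receptor Folr1, not tested, followed the same arrays, at 7.81, 101, 61.5 and 10.2 in sham and 11.4, 5.61, 6.60 and 9.14 in TBI, and Kl, the co-receptor klotho, was well above background on 1 sham array and on no TBI array.

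Meninges markers, 10 with a probe and 8 tested, summed to 1054, 3979, 3842 and 1109.5 in sham and 1121, 1023, 885 and 1281 in TBI, and 0 passed (median -0.13). The high sums of sham 2 and sham 3 came from Igf2 and Igfbp2, secreted growth factor signaling proteins, of which Igf2 is also in the choroid plexus list. The median deviation of the 8 tested markers from their means over the 12 arrays was 0.24 in sham 2 and 0.15 in sham 3, against 0.20 in TBI 4 and 0.26 in naive 3. Blood markers, 5 with a probe and 4 tested, summed to 9999, 8736, 20344 and 8226 in sham and 7918, 7952, 7111 and 8507 in TBI, and only Hbb passed (median -0.42), with sham 3 alone high. Cilia and ependyma markers had 7 tested, 0 passed and a median of -0.31, and TBI 1 had the highest median deviation (0.67, against 0.38 in sham 2). Apart from the values without sham 2 and sham 3, the part of these tissues in the genes that passed lower was not tested.

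The naive arrays placed the TBI and sham levels. Sham vs naive and TBI vs naive each share arrays with TBI vs sham, so their values are given side by side only. For sham vs naive, limma called 0 of 16188 probes (0%) at an adjusted p under 0.05, with 1064 at an unadjusted p under 0.05, and 45 of 9693 named genes (0.464%) passed higher and 170 (1.75%) lower in sham. For TBI vs naive, 1 of 16130 probes (0.0062%) was called, again A_64_P053331 (-2.65, adjusted p = 0.0129), and 62 of 9659 named genes (0.642%) passed higher and 44 (0.456%) lower in TBI. The naive arrays were on a slide of their own, so slide and naive group cannot be told apart.

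Genes higher in TBI than sham fell into different positions against naive. Serping1 differed from naive by 1.42 in TBI and 0.09 in sham, Lgals3 by 1.101 and -0.04, Aspg by 1.02 and -0.15, and S100a6 by 0.87 and -0.01. In these the sham level lay near naive and the TBI level above it. C3 (0.80 and -0.17), Cd68 (0.75 and -0.22), Cp (0.62 and 0.04) and Cd44 (0.59 and -0.11) were placed alike.

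Others lay the other way round, with TBI near naive and sham below it. Repin1 differed from naive by 0.34 in TBI and -1.65 in sham, Hp by -0.13 and -0.76, Il18bp by 0.04 and -0.71, Slc18a1 by -0.27 and -0.82, and Nfkbia by -0.03 and -0.56. For Repin1 the sham mean includes sham 1, which was under that array's floor. Oasl2 (0.03 and -0.57), Isg15 (-0.03 and -0.67) and Col5a1 (0.15 and -0.67) were placed the same way, and Casp4 lay between (0.41 and -0.46). Among the genes lower in TBI, Dusp19 (-0.13 and 0.94), Mrpl18 (0.27 and 0.99) and Aifm3 (0.03 and 0.52) had TBI nearer to naive than sham was.

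The TBI effect at 3 months was set beside those of other rats with their own sham groups, in the hippocampus at 2 weeks and 6 months and in the cortex at 3 months, over genes named on both array designs. At 2 weeks 253 of 7846 named genes (3.22%) passed higher and 26 (0.331%) lower, at 6 months 77 of 7828 (0.984%) and 28 (0.358%), and in the cortex 77 of 7726 (0.997%) and 107 (1.38%). Of the 77 genes on both designs that passed higher at 3 months, 28 (36.4%) had also passed higher at 2 weeks, which is 11.1% of the longer 2-week list. At 6 months 11 of 77 (14.3% of each list) were shared, and in the cortex 13 of 76 (17.1% and 16.9%). Of the genes that passed lower, 0 of 22, 1 of 21 (Mrpl18) and 0 of 21 were shared. Arrays of both designs were scaled alike but separately, so only differences within a set are compared.

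Of 7693 named genes that could be measured in all 4 sets, 76 passed higher at 3 months. Of these, 8 passed higher in every set: Serping1, Emp3, Vim, Lgals3, Gpnmb, Anxa1, S100a3 and C1s. Emp3, a small membrane protein of the PMP22 family named after its values were seen, read 42.5, 43.9, 85.6 and 55.2 in sham and 91.3, 70.9, 123 and 76.1 in TBI at 3 months (0.69 ± 0.25, unadjusted p = 0.0183), with sham 3 inside the TBI range, and its call was lost without TBI 3, sham 1 or sham 2 (0.53 to 0.59). Its effect was 0.97 at 2 weeks, 0.57 at 6 months and 0.55 in the cortex. Serping1 gave 1.32 at 3 months, 1.91 at 2 weeks, 1.16 at 6 months and 1.62 in the cortex.

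Several inflammatory genes had a larger estimate at 2 weeks. Cd68 gave 2.79 at 2 weeks against 0.96 at 3 months, C3 2.42 against 0.97, Lgals3 2.39 against 1.14, Gpnmb 2.11 against 0.57, and RT1-Db1 2.50 against 0.82. The test of the difference, an interaction contrast in limma, called 0 of 10478 probes (0%) between 3 months and 2 weeks at an adjusted p under 0.05, with 764 at an unadjusted p under 0.05 and a lowest adjusted p of 0.0730. It called 0 of 10445 (0%) against 6 months, with 968 unadjusted, and 0 of 10306 (0%) against the cortex, with 496 unadjusted. Hp was higher at 3 months (0.63) but gave -0.22 at 2 weeks, -0.20 at 6 months and -0.22 in the cortex, and Dusp19 gave -1.07 at 3 months and 0.01, 0.10 and 0.53 in the same sets. No difference between sets reached an adjusted p under 0.05 for these genes. The counts of 0 depended on single arrays: without sham 3, limma called 5 probes against 2 weeks and 15 against 6 months, without TBI 2 it called 2 and 13, and against 6 months it called 7 without TBI 3 and 1 without TBI 4, sham 4 or naive 3.

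**Figure D5:**
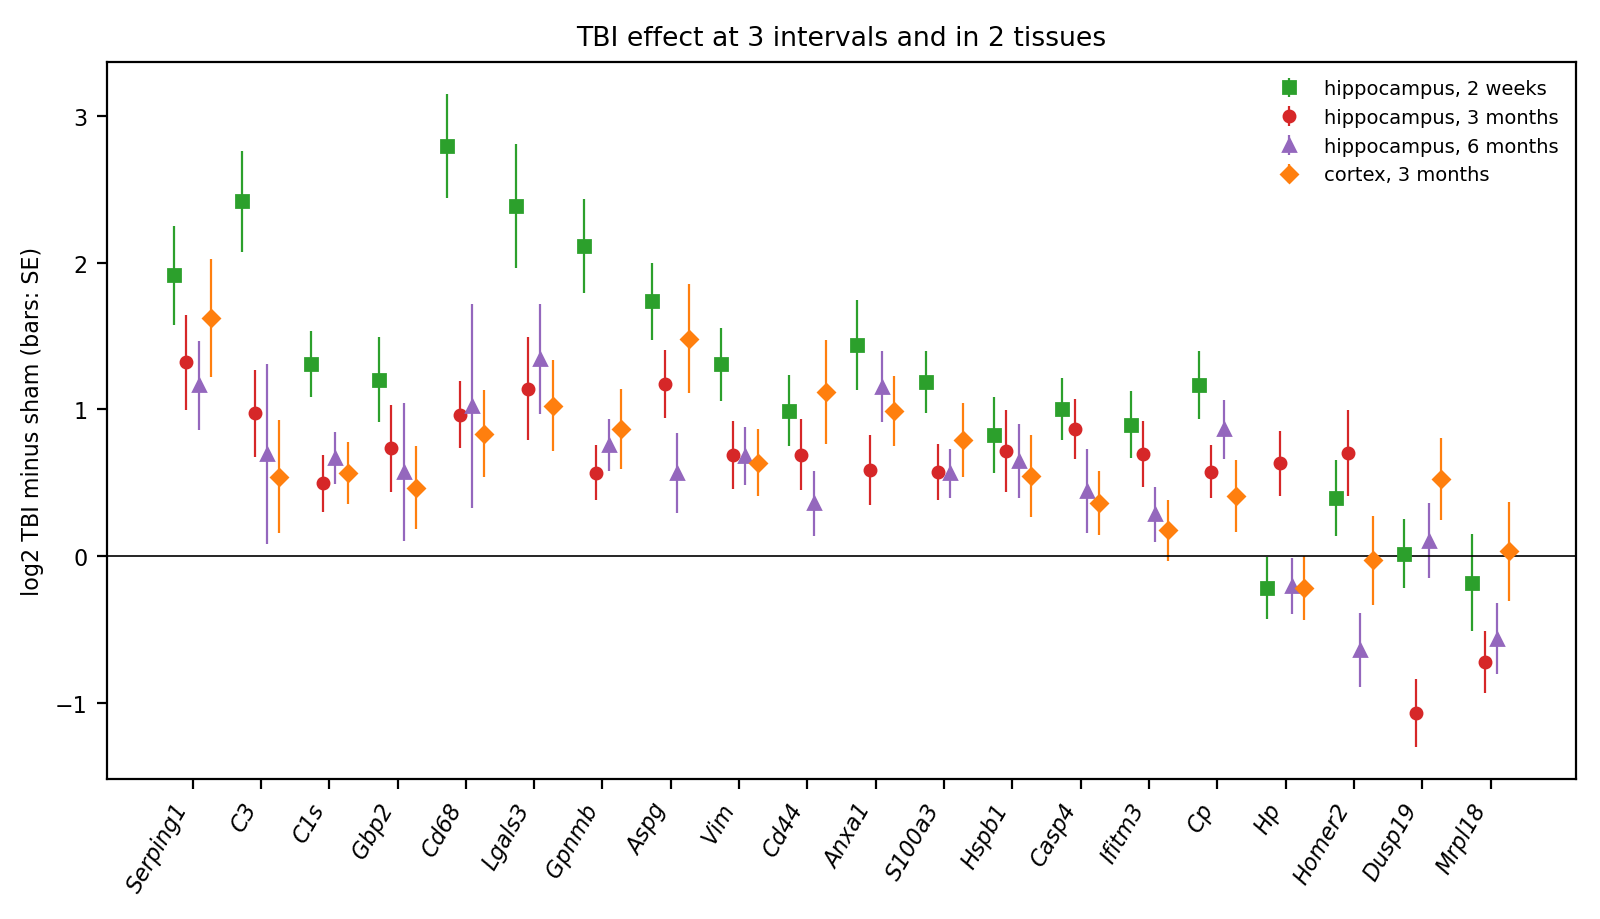
Log2 TBI minus sham with its standard error (y axis) for 20 genes (x axis) in hippocampus 2 weeks, 3 months and 6 months after the operation and in cortex at 3 months, each against its own sham rats. Serping1 lies between 1.16 and 1.91 in all 4 sets, and Cd68 is highest at 2 weeks. Hp (0.63) and Dusp19 (-1.07) lie farther from 0 at 3 months than at 2 weeks (-0.22 and 0.01) and 6 months (-0.20 and 0.10).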

How the data were processed

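RNA of the hippocampus was hybridized by the authors to Agilent single-color rat arrays, 1 array per rat, and scanned with Agilent Feature Extraction. The deposited scanner files hold the background-subtracted and otherwise corrected processed signal of each probe, an intensity on a linear scale, with the software's call of whether a probe is well above background. The authors also deposited a table of ratios, in which the processed signal is divided by 1 constant per array. The methods name the array median as that constant, but the constants lay at percentiles 74.89 to 75.4 of the 12 arrays, so log2 processed signal minus the 75th percentile of the array was used here, computed from the deposited intensities, and the deposited ratios and the median were alternatives. There were 0 columns of samples outside the series.

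Groups came from the sample titles. Control spots were left out, spots of a probe were averaged, and a probe was tested if it was well above background on every array of sham or of TBI. limma (version 3.58.1, R 4.3.3) was fitted to the 12 hippocampal arrays of 3 months, with Benjamini-Hochberg adjustment over all tested probes. Naive and sham arrays of the same replicate number deviated together from their group means (correlations of 0.32, 0.26, 0.55 and 0.12), so these numbers were treated as pairing in an alternative with the replicate block, although the labels do not say what a number marks. On the 12 arrays the number was also the position of the array on its slide. Naive and sham arrays lay in the same row of their slides, so number and position cannot be told apart. Interactions with other intervals and the cortex used 24 arrays each. 48 tested probes had no value on some array, and these were fitted on the remaining arrays. Python 3.11.15 with pandas 2.3.3 and numpy 2.4.6 made the other tables, and the model was tested on simulated data.

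The probe of a gene with the brightest mean over the 12 arrays stood for it, and only probes with 1 gene name were named. Of 1246 genes with over 1 tested probe, 0 had probes past the thresholds in opposite directions and 28 had 1 probe past and another not. Named genes were those at an adjusted p under 0.05, those the study names for this tissue and interval, the 10 largest rises and 10 largest falls past both thresholds without overlap of the groups, and up to 4 members of each list. Some other genes were chosen after their values were seen, which is said where their values are given. Lists with no member past the thresholds are given by counts and medians, and their first 3 members are named for MHC class I, chemokines and choroid plexus. Some genes are not reported here. The members and lists were chosen with earlier results of these data known. Alternatives were median and quantile scaling, a normexp background correction with an offset of 50 (on the median spot signal, since no mean signal was used here), the authors' ratios, other filters, a model of 2 groups, a replicate block, another fold threshold, and leaving out arrays.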

Additional observations from a re-analysis of the deposited data

Results flagged for a closer look

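In 219 groups of 4 arrays, the gap of the highest or lowest array to its nearest neighbor was compared with the range of the group, and 17 groups exceeded Dixon's critical value for 4 values, where chance gives about 10.95 (5%). Among TBI arrays, the highest array stood apart for C3 (0.888), Ccl4 (0.896), S100a3 (0.864), RT1-A1 (0.856), Kl (0.906) and Cd74 (0.839), and the lowest for Dhx32 (0.928) and Serhl2 (0.880). Among sham arrays, the highest stood apart for C4a (0.840) and C1qa (0.864), and the lowest for Nfkb1 (0.913). Ccl4 and Kl were not well above background on any TBI array. The sums of blood markers (0.854) and of microglia and macrophage markers (0.961) each had 1 sham array far above the other 3, which was sham 3 in both. Among naive arrays, the lowest stood apart for Repin1 (0.856), Hspb1 (0.875) and C1qa (0.947), and the share of probes well above background had 1 high array (0.910).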

How the results depend on the processing

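Of 48 named genes past both thresholds, 0 reversed in the 23 alternatives and 10 kept their call in each alternative that tested them. Of these, 7 were tested in all 23. Repin1, Ssc5d and Dusp19, each tested through 1 group alone, were among the 10 but were not tested in all 23. Many calls depended on scaling or background correction: 29 of the 48 were kept with median scaling, which the methods name, and 25 with normexp. With quantile normalization 43 were kept, and with the authors' ratios 45. Genes with no lost call named above were not all stable. C3, Lgals3 and Il18bp lost their call in 1 of the 23 alternatives, Ifitm3 and Vim in 2, and Cd44, Hp and Oasl2 in 3. TBI vs sham gave 53 probes higher and 234 lower past both thresholds (2 at an adjusted p under 0.05) with median scaling, 102 lower with quantile normalization, 101 (65 higher, 36 lower) with normexp, 230 (176 and 54) with the authors' ratios, 622 (547 higher; 0 adjusted) with no filter, 32 lower (0 adjusted) with every array above background, and 136 (94 higher) at a fold of 1.5. TBI vs naive gave 2 adjusted calls with quantile normalization, 121 past both thresholds with normexp, 600 (0 adjusted) with no filter and 147 (0 adjusted) with the stricter filter. Sham vs naive gave 294 with normexp and 350 with the stricter filter. The interaction with 2 weeks called 2 probes with quantile normalization and 7 with normexp, and that with 6 months 14 with quantile normalization and 6 with the stricter filter. The cause was not tested.

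Without 1 array at a time, TBI vs sham gave 0 to 3 adjusted calls and 202 to 357 probes past both thresholds, 134 to 231 higher and 63 to 178 lower. The total exceeded 1.5 times the reported 212 without TBI 2 (343), sham 1 (345), sham 3 (357) and sham 4 (325). Sham vs naive ranged from 391 to 1128 (without sham 3), with 0 adjusted calls, TBI vs naive from 195 to 470 (without TBI 1), with 0 to 3 adjusted calls (0 without TBI 2, TBI 4, naive 1 or naive 2, and 3 without sham 3), and the interactions from 0 to 5 (2 weeks), 0 to 15 (6 months) and 0 to 0 (cortex). 2 alternatives were chosen after seeing the data. Without the 2 arrays of lowest detection, sham 1 and TBI 1, TBI vs sham gave 473 (254 higher, 219 lower; 0 adjusted) and TBI vs naive 514 (0 adjusted), and 25 of the 48 genes kept their call. Without sham 2 and sham 3, it gave 128 lower (0 adjusted), sham vs naive 895 and TBI vs naive 0 adjusted, the choroid plexus median reversed to 0.051 and Ttr to 0.23, and 27 genes kept their call. Gfap ranged from -0.40 to 0.29 without 1 array, and reversed without TBI 1 (0.00), TBI 2 (0.08) and sham 4 (0.29).

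The replicate block gave 246 probes (165 higher, 81 lower) and 1 adjusted call, and all 48 genes kept theirs. Sham and TBI arrays of the same number correlated by -0.38, 0.10, -0.23 and -0.18 in their deviations from the group means, so the numbers did not pair them. With the block, sham vs naive gave 581 probes past both thresholds, against 576 without it, and 0 adjusted calls. A slide block could not be fitted for TBI vs sham, since both lie on 1 slide. Signal over background limits TBI 1 most, where no probe under a relative signal of 10.1 was well above background.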
